A study of Rattus norvegicus with 6 samples.

Results

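The genes of cholesterol and fatty acid synthesis described here are 32 rat genes. They were chosen by name from the textbook pathways, with earlier results of these data known. They are 19 sterol synthesis enzymes, 6 regulators and carriers of sterol, and 7 enzymes of fatty acid synthesis, desaturation and elongation. A probe of the array carried a RefSeq transcript of 31 of them, all but Srebf1, and 30 were tested among 11748 genes. RNA came from renal cortex of 6 Sprague-Dawley rats, all male and 5 weeks old when bought, and each animal had its own single-colour Agilent array. For 4 weeks, 3 rats were given 2-amino-4-nitrophenol, a nitroaromatic amine, at 750 mg/kg/day, and 3 control rats were given corn oil. The question is whether these transcripts differed between the dosed and the control animals.

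Cholesterol is built from acetyl-CoA through the mevalonate pathway to farnesyl diphosphate, then through squalene and lanosterol to the finished sterol. Farnesyl diphosphate also feeds the isoprenoid branch that makes geranylgeranyl groups for proteins. Transcription of these enzymes is driven mainly by SREBP-2, the product of Srebf2, which the escort protein SCAP carries to the Golgi when membrane sterol is low and which the INSIG proteins hold back when it is high. Fatty acid synthesis starts from citrate and acetyl-CoA and is driven more by SREBP-1c, a product of Srebf1, and by the carbohydrate response factor ChREBP. In the kidney, the proximal tubule takes most of its energy from oxidising fatty acids.

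The 75th percentile of the processed signal lay between 743 and 852 on the corn oil arrays and between 564 and 685 on the treated arrays before scaling. The share of the 61657 non-control probes that stood well above background was 68.1% to 70.9% in corn oil and 61.6% to 66.3% in treated rats. Levels below are log2 signals relative to the 75th percentile of the same array, and a log2 change is the treated mean minus the corn oil mean. Corn oil replicate 2 was alone on a second slide and scan. On the shared slide the corn oil arrays lay in row 1 and the treated arrays in row 2, so row and treatment cannot be told apart there. With 3 arrays a group, precision is set by the spread between few animals, and in a bulk tissue fewer cells of a type and less RNA per cell cannot be told apart.

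The sterol synthesis enzymes lay mostly a little higher in the treated rats, and no member passed the test. Of 19 enzymes, 18 had a log2 change above 0, as did 6741 of the 11748 genes tested. The 19 had a median of 0.25 and a range of -0.27 to 0.62, beside a median of 0.04 over all genes. The highest log2 changes among them belonged to Dhcr7 (0.62), the last enzyme before cholesterol in one route of the pathway, Sqle (0.50), squalene epoxidase, and Tm7sf2 (0.46), a sterol C14 reductase. The 6 measured fatty acid enzymes had a median log2 change of 0.06, and Fads2, the delta-6 desaturase, was the one whose treated arrays all lay above the corn oil arrays. With scaling on spike-in controls in place of the 75th percentile, the sterol median was -0.07, the fatty acid median -0.26 and the median of all genes -0.28, so the direction given here is relative to the other genes on the array.

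With limma and Benjamini-Hochberg adjustment over all genes, 0 of the 30 tested members had an adjusted p under 0.05, where 3 of the 11748 genes did (0.0255%). The lowest adjusted p among the members was 0.105. At an unadjusted p under 0.05, 9 members were on the higher side and 0 on the lower, against 14.3% and 7.29% of all genes. Of those 9, 7 are sterol enzymes, which is 36.8% of the 19. The treated arrays all lay above the corn oil arrays in 8 of the 19 sterol enzymes (42.1%), against 20.1% of all genes. They all lay below in 0 of 30 members, against 10.1% of all genes. Enzymes of one pathway are not independent of one another, so these shares describe the list and do not test it.

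**Figure D1:**
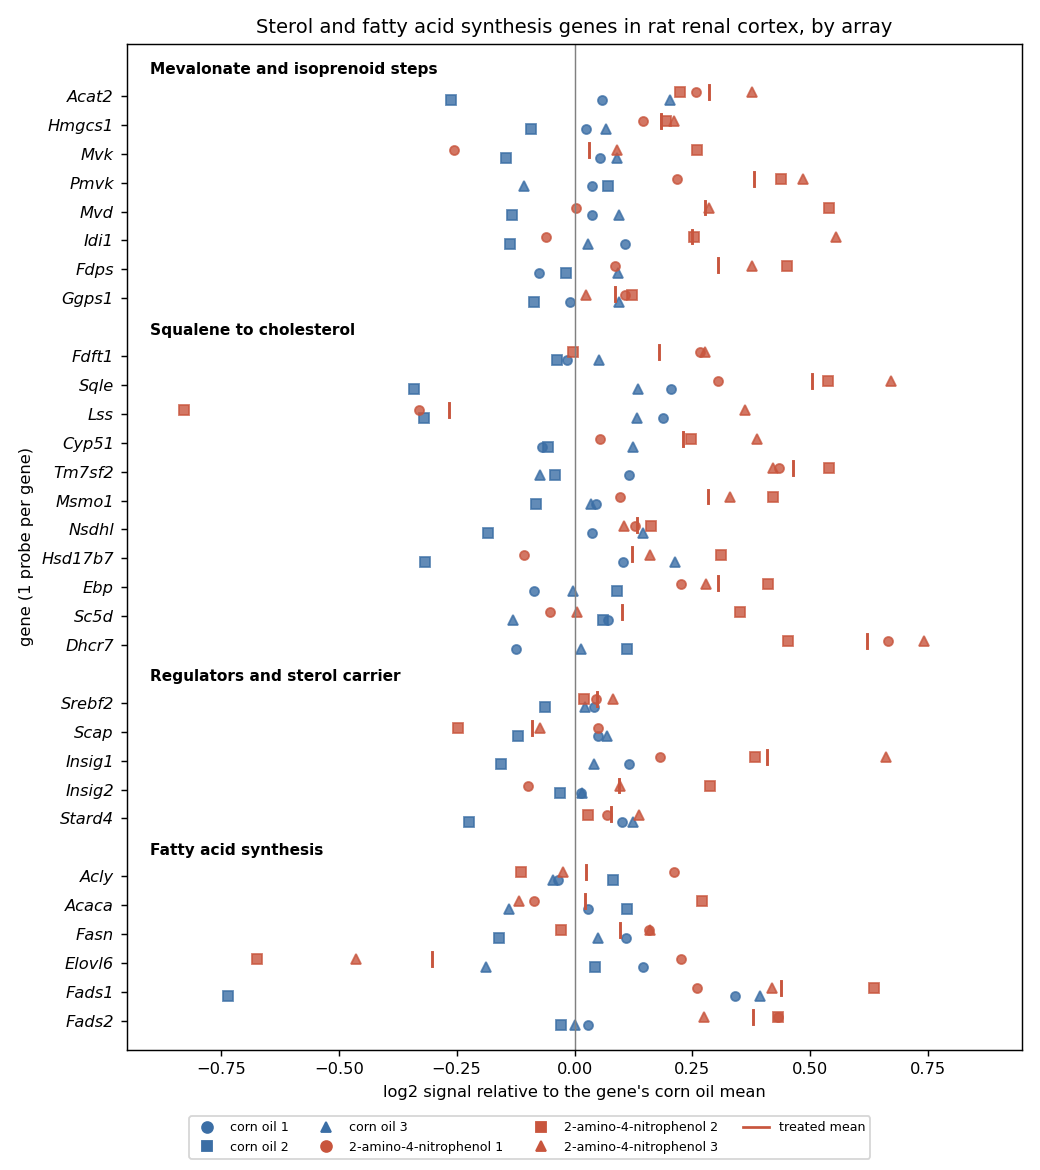
Log2 signal of each tested member on each array, relative to the gene's corn oil mean (horizontal axis, log2 units), for 3 corn oil arrays (blue) and 3 arrays of 2-amino-4-nitrophenol (red), with marker shapes for replicate numbers and a bar at the treated mean. In Dhcr7, Tm7sf2, Ebp, Pmvk and Fads2 the red points stand clear of the blue ones, whereas in Lss, Elovl6 and Fads1 single arrays spread over a wide range.

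The promoters of the 4 members with the lowest p that have an entry in the RefSeq promoter table are shown because 3 of them come from the same arm of the pathway and the last from fatty acid desaturation. Each runs from 250 bases before to 50 after an annotated start on GRCr8, read 5′ to 3′ on the gene's strand. Capitals mark matches on either strand to the CCAAT box (CCAAT, which reads ATTGG on the other strand) and to the GC box (GGGCGG).
Dhcr7, chr1:208444184-208444483, plus strand: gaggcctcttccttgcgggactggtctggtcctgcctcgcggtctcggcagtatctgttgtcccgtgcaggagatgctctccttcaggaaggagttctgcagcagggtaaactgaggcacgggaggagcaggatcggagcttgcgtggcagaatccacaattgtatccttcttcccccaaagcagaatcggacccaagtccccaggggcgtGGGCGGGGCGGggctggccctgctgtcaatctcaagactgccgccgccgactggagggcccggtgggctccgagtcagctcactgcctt
Tm7sf2, chr1:212789492-212789791, minus strand: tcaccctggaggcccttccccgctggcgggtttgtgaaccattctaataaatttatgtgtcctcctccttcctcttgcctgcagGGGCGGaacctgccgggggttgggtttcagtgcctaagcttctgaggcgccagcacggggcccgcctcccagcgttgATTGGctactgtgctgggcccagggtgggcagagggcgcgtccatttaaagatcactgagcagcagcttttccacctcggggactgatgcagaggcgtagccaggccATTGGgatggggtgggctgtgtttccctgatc
Ebp, chrX:16971212-16971511, plus strand: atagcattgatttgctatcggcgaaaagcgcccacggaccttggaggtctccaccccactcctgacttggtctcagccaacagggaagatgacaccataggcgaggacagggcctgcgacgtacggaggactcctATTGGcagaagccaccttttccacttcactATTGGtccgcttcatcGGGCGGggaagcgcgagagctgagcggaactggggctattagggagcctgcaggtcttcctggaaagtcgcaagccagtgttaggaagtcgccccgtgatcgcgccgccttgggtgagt
Fads2, chr1:216171984-216172283, minus strand: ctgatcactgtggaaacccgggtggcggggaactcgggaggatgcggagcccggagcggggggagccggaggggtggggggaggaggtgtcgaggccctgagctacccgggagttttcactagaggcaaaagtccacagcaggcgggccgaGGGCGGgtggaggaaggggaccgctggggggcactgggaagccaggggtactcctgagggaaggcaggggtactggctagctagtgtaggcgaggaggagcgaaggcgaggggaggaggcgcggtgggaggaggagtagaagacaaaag
Dhcr7 held 2 overlapping GC boxes and no CCAAT box. Tm7sf2 and Ebp each held 2 CCAAT boxes and 1 GC box. Fads2 held 1 GC box and no CCAAT box.

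The table has an entry for 25 of the 32 genes, with 26 promoters because Srebf1 has 2, among 33469 promoters in all. A CCAAT box was present in 20 of the 26 (76.9%) and in 37.5% of all promoters. A GC box was present in 21 of the 26 (80.8%) and in 33.1% of all promoters. Among the 16 sterol enzyme promoters, each of these motifs was present in 13 (81.2%), and among the 4 fatty acid enzyme promoters CCAAT was present in 2 and the GC box in 3. The member promoters had a median GC content of 64.3%, against 51.7% over the table, which bears on the GC box directly, as its letters are G and C alone. The sterol regulatory element in the spelling TCACNCCAC matched in 0 of the 26 and in 1.12% of all promoters. This says only that these letters are not in these windows. The motifs were searched on both strands, and a match is a description of the sequence.

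The first steps of the mevalonate arm join acetyl-CoA units. Acat2, the cytosolic acetoacetyl-CoA thiolase, had log2 levels of 3.41, 3.09 and 3.56 on the corn oil arrays and 3.61, 3.58 and 3.73 on the treated arrays. All 3 treated values lay above the corn oil values, by a small margin over corn oil replicate 3. Its log2 change was 0.29 ± 0.13 (limma's SE, n = 3 and 3; adjusted p = 0.275), and a second probe gave 0.11. Hmgcs1, the HMG-CoA synthase of the cytosol, stood at 2.82, 2.71 and 2.86 in corn oil and at 2.94, 2.99 and 3.01 in treated rats. The groups did not overlap, with a log2 change of 0.18 ± 0.08 (adjusted p = 0.248), but the 3 probes of the gene ranged from -0.048 to 0.18.

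Pmvk, which adds the second phosphate to mevalonate, had the most separated groups of this arm. Its log2 levels were -0.029, 0.0033 and -0.17 in corn oil rats and 0.15, 0.37 and 0.42 in treated rats. Every treated array lay above every corn oil array, with treated replicate 1 the closest. The log2 change was 0.38 ± 0.10 (95% confidence interval 0.13 to 0.63; adjusted p = 0.145), a 1.30-fold ratio. Mvk, the kinase of the step before, had a log2 change of 0.031 ± 0.15 (interval -0.34 to 0.40), with treated arrays on both sides of the corn oil arrays. Mvd, the decarboxylase that follows, stood at 0.53, 0.36 and 0.59 in corn oil and 0.49, 1.03 and 0.78 in treated rats. Its treated replicates 2 and 3 lay above the corn oil arrays and replicate 1 among them (log2 change 0.28 ± 0.15; adjusted p = 0.332).

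Idi1, the isomerase that makes dimethylallyl diphosphate, stood at 0.87, 0.63 and 0.79 in corn oil and 0.70, 1.02 and 1.32 in treated rats. Treated replicate 1 was again inside the corn oil range, and the log2 change was 0.25 ± 0.17 (adjusted p = 0.418). Fdps, farnesyl diphosphate synthase, had levels of 2.55, 2.60 and 2.72 against 2.71, 3.07 and 3.00. Its treated replicate 1 lay just under the highest corn oil array, and its log2 change was 0.30 ± 0.12 (adjusted p = 0.217). Its 3 probes gave changes between 0.23 and 0.30. Ggps1, which takes farnesyl diphosphate into the isoprenoid branch and away from sterol, had a log2 change of 0.085 ± 0.084 (interval -0.12 to 0.29), with treated replicate 3 inside the corn oil range. A second probe of Ggps1 gave -0.042. By the brightest probe of each gene, all 8 enzymes of this arm had a log2 change above 0, with a median of 0.26. The treated arrays all lay above the corn oil arrays in 3 of the 8 (37.5%, beside 20.1% of all genes).

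The arm from squalene to cholesterol held the members with the lowest p. Fdft1, squalene synthase and the first committed enzyme of sterol, had levels of 2.83, 2.81 and 2.90 in corn oil and 3.11, 2.84 and 3.12 in treated rats. Treated replicate 2 lay within the corn oil range and the others above it (log2 change 0.18 ± 0.10; adjusted p = 0.345). A second, dimmer probe of Fdft1 gave 0.36, with all treated arrays above the corn oil arrays. Sqle, which sets the pace of the sterol arm, stood at 1.42, 0.88 and 1.35 in corn oil and 1.52, 1.75 and 1.89 in treated rats. The groups did not overlap, and corn oil replicate 2 was well below the other corn oil arrays. Its log2 change of 0.50 ± 0.18 (interval 0.077 to 0.93; adjusted p = 0.187) was 0.33 without that array. Its 2 probes gave 0.40 and 0.50.

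Lss, lanosterol synthase, was the exception among the sterol enzymes. It stood at 0.65, 0.14 and 0.59 in corn oil and at 0.13, -0.37 and 0.82 in treated rats. The treated arrays had both the lowest and the highest value, and the log2 change was -0.27 ± 0.31 (interval -1.03 to 0.49; adjusted p = 0.646), with -0.65 by a second probe. Without treated replicate 3 it was -0.58, and without treated replicate 2 it was 0.015. Cyp51, the lanosterol demethylase, stood at -0.43, -0.42 and -0.24 against -0.31, -0.12 and 0.021, with treated replicate 1 inside the corn oil range (log2 change 0.23 ± 0.11; adjusted p = 0.295).

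Tm7sf2, the sterol C14 reductase that acts after Cyp51, had levels of 2.16, 2.01 and 1.97 in corn oil rats and 2.48, 2.59 and 2.47 in treated rats. The treated arrays were close to one another and all above the corn oil arrays. This gave a log2 change of 0.46 ± 0.088 (interval 0.25 to 0.68; adjusted p = 0.112), a 1.38-fold ratio, and a second probe gave 0.56. Msmo1, the sterol C4 methyl oxidase, stood at 4.21, 4.08 and 4.20 against 4.26, 4.59 and 4.49. The groups did not overlap, but treated replicate 1 lay just above corn oil replicate 1 (log2 change 0.28 ± 0.11; adjusted p = 0.21). By their brightest probes, the enzymes that finish the C4 demethylation had smaller changes, with overlapping groups: 0.13 ± 0.10 in Nsdhl and 0.12 ± 0.18 in Hsd17b7. A second, dimmer probe of Hsd17b7 gave 0.37.

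Of the last steps, Ebp and Dhcr7 had groups that stood apart, and Sc5d did not. Ebp, the sterol isomerase that moves the double bond from the eighth to the seventh carbon, had levels of 3.81, 3.99 and 3.89 in corn oil and 4.12, 4.31 and 4.18 in treated rats. All treated arrays lay above all corn oil arrays, with a log2 change of 0.30 ± 0.091 (interval 0.084 to 0.53; adjusted p = 0.158). Sc5d, the desaturase that follows, stood at 1.07, 1.06 and 0.87 against 0.95, 1.35 and 1.01. Only treated replicate 2 lay above the corn oil arrays, and the log2 change was 0.10 ± 0.13 (interval -0.22 to 0.42). Dhcr7, the 7-dehydrocholesterol reductase, had levels of 1.38, 1.61 and 1.51 in corn oil and 2.16, 1.95 and 2.24 in treated rats. The gap between its groups was wider than the range within either group. Its log2 change of 0.62 ± 0.11 (interval 0.35 to 0.89; adjusted p = 0.105), a 1.54-fold ratio, was the highest of the 30 members tested. The unadjusted p of Dhcr7, Tm7sf2, Pmvk and Fads2 stayed under 0.05 with any 1 of the 6 arrays left out, that of Ebp in 5 of the 6 cases, that of Sqle in 3, and those of Fdps and Msmo1 in 1 each.

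Among the regulators, Insig1 stood apart. Insig1 is itself a target of SREBP and retains the SCAP complex in the endoplasmic reticulum. Its levels were 2.46, 2.19 and 2.39 in corn oil rats and 2.53, 2.73 and 3.01 in treated rats. The groups did not overlap, and the treated values were spread more widely than the corn oil values. The log2 change was 0.41 ± 0.15 (interval 0.053 to 0.76; adjusted p = 0.191), its 4 probes gave 0.22 to 0.41, and the unadjusted p stayed under 0.05 in 2 of the 6 cases with 1 array left out. Insig2, the other INSIG, had a log2 change of 0.10 ± 0.11 (interval -0.18 to 0.37) with overlapping groups.

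The genes of the transcription factor and its escort had changes near 0. Srebf2 stood at 1.63, 1.53 and 1.61 in corn oil and at 1.63, 1.61 and 1.67 in treated rats. Its log2 change was 0.049 ± 0.075 (interval -0.13 to 0.23), and its 2 probes that passed the filter differed in sign (-0.028 and 0.049). Scap had levels of 2.45, 2.28 and 2.47 against 2.45, 2.15 and 2.33, with a log2 change of -0.091 ± 0.11 (interval -0.35 to 0.17). Stard4, a carrier that moves cholesterol between membranes, had a log2 change of 0.078 ± 0.12 (interval -0.20 to 0.36). These values concern RNA, and SREBP activity is set largely by cleavage of the protein, which the arrays do not measure. Srebf1 is not analysed here.

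The enzymes that build palmitate had log2 changes near 0. Acly, which makes cytosolic acetyl-CoA from citrate for both pathways, stood at 3.80, 3.91 and 3.78 in corn oil and 4.04, 3.72 and 3.80 in treated rats. Treated replicate 1 was above and replicate 2 below the corn oil arrays, with a log2 change of 0.025 ± 0.11 (interval -0.24 to 0.29). Fasn, fatty acid synthase, stood at 0.98, 0.71 and 0.92 against 1.02, 0.84 and 1.03. The treated arrays overlapped the corn oil arrays, with a log2 change of 0.10 ± 0.11 (interval -0.17 to 0.36). Acaca, the acetyl-CoA carboxylase that commits carbon to fatty acids, had a log2 change of 0.022 ± 0.13 (interval -0.31 to 0.35). In Acly, Fasn and Acaca the 2 probes of the gene differed in sign, from -0.070 to 0.096 at most.

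The elongase and the desaturases differed among themselves. Elovl6, which lengthens palmitate to stearate, stood at 1.68, 1.58 and 1.35 in corn oil and at 1.76, 0.86 and 1.07 in treated rats. Treated replicates 2 and 3 lay below the corn oil arrays and replicate 1 above them. The log2 change was -0.30 ± 0.24 (interval -0.89 to 0.28; adjusted p = 0.488), with -0.47 by a second probe, and without treated replicate 1 it was -0.57. Fads1, the delta-5 desaturase, stood at 1.00, -0.077 and 1.05 against 0.92, 1.29 and 1.08. Corn oil replicate 2 was more than 1 log2 unit below the other corn oil arrays. The log2 change of 0.44 ± 0.32 (adjusted p = 0.445) was 0.071 without that array.

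Fads2, the delta-6 desaturase of polyunsaturated fatty acids, had levels of -0.24, -0.29 and -0.26 in corn oil rats and 0.17, 0.17 and 0.0084 in treated rats. The corn oil arrays lay close together and all treated arrays above them. The log2 change was 0.38 ± 0.081 (interval 0.18 to 0.58; adjusted p = 0.122), a 1.30-fold ratio, and its 2 probes gave 0.37 and 0.38. Scd, the stearoyl-CoA desaturase, was not tested: its brighter probe was well above background on 1 corn oil array and 0 treated arrays. No fold is given for it. Fads2 was thus the 1 of 6 tested fatty acid enzymes at an unadjusted p under 0.05 (16.7%, beside 14.3% of all genes).

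The sterol and fatty acid enzymes were set against each other on each array, as the median of the genes' log2 levels relative to their corn oil means. The sterol median was 0.038, -0.085 and 0.091 on the corn oil arrays and 0.11, 0.31 and 0.33 on the treated arrays. All treated arrays lay above the corn oil arrays, treated replicate 1 only just. The fatty acid median was 0.069, 0.0072 and -0.023 in corn oil and 0.22, 0.12 and 0.068 in treated rats. Treated replicate 3 overlapped the corn oil arrays there. The sterol median minus the fatty acid median was -0.031, -0.092 and 0.11 in corn oil and -0.11, 0.19 and 0.26 in treated rats. On treated replicate 1 the difference was below every corn oil array, so the groups overlapped, and the difference of 0.19 between the median log2 changes of both lists is given without a test. It was 0.091 without treated replicate 3, 0.094 without treated replicate 2, 0.11 without corn oil replicate 2 and 0.097 with quantile normalization.

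**Figure D2:**
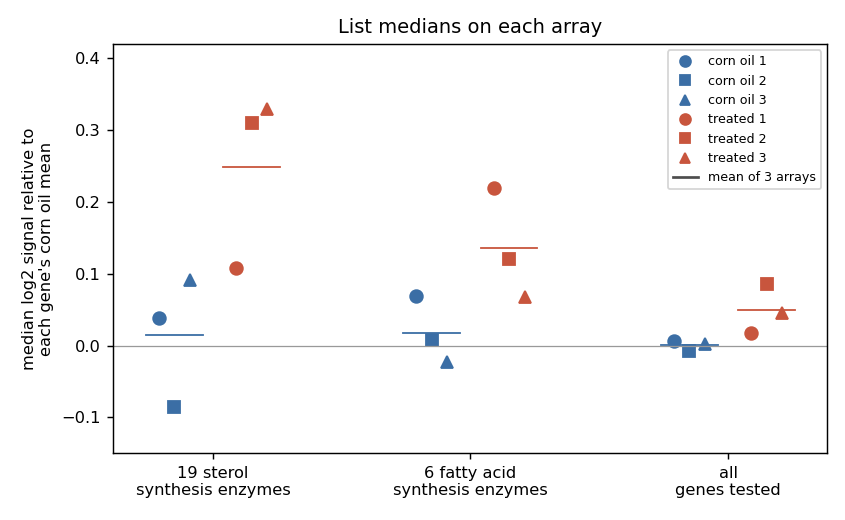
Median log2 signal relative to the corn oil mean of each gene (vertical axis, log2 units) on each of the 6 arrays for the sterol enzymes, the fatty acid enzymes and all genes tested, with a line at the mean of the 3 arrays of a group. The sterol medians of treated replicates 2 and 3 reach 0.31 and 0.33, whereas the fatty acid medians of the treated arrays lie between 0.068 and 0.22 and those of all genes between 0.018 and 0.086.

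The same arrays were low in many of the sterol enzymes. Corn oil replicate 2 was the lowest corn oil array in 12 of the 19 (63.2%) and in 5 of the 5 regulators tested, against 40.0% of all genes. Treated replicate 1 was the lowest treated array in 12 of the 19, against 45.0% of all genes, and the highest in 0. Without corn oil replicate 2 the sterol median was 0.18, with 4 enzymes on the higher side at an unadjusted p under 0.05 in place of 7, beside 9.57% of all genes in that fit. Without treated replicate 1 it was 0.32, with 10 such enzymes beside 20.0% of all genes. Without treated replicate 3 it was 0.17, the lowest, with 4 enzymes beside 8.61%, and without corn oil replicate 1 it was 0.26, with 4 beside 9.58%.

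Brightness moved with the change over the whole array. When all genes were ranked by mean signal and cut into deciles, the median log2 change was -0.12 in the dimmest decile and 0.23 in the brightest, and the sterol enzymes lay at a median of decile 7. Of the 19 enzymes, 17 had a log2 change above the median of all genes, and 18 lay above the median of their own decile. Of the 6 fatty acid enzymes, 3 lay above the median of all genes and 4 above that of their decile. The part of brightness in the members' values was otherwise not tested.

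**Figure D3:**
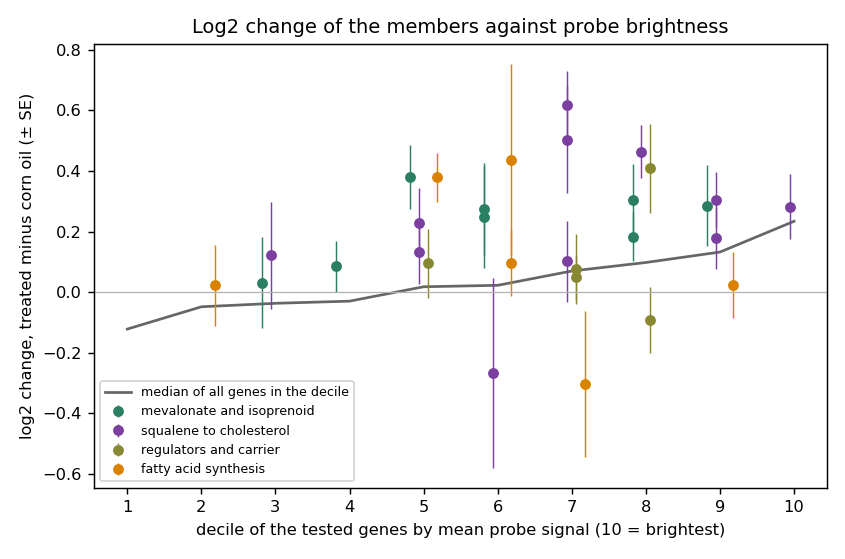
Log2 change of each tested member (vertical axis, point with limma's SE as a bar, coloured by role) against the decile of the tested genes by mean signal in which it lies (horizontal axis), with a grey line for the median change of all genes in each decile. The decile medians run from -0.12 to 0.23, and 18 of the 19 sterol enzymes lie above that of their own decile.

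The sign of the list medians depended on the scaling. With spike-in scaling, which shifts every gene by the same amount and so leaves their order as it was, 4 of the 19 sterol enzymes had a log2 change above 0. The sterol median minus the median of all genes, 0.21 as reported, was 0.12 without treated replicate 3, 0.14 without corn oil replicate 2, 0.15 with normexp background correction and 0.16 with quantile normalization. With normexp, 14 of the 19 enzymes lay above the median of all genes. With quantile normalization the sterol median was 0.15 and that of all genes -0.0040. In that fit 4 sterol enzymes were higher at an unadjusted p under 0.05, beside 8.23% of all genes.

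**Figure D4:**
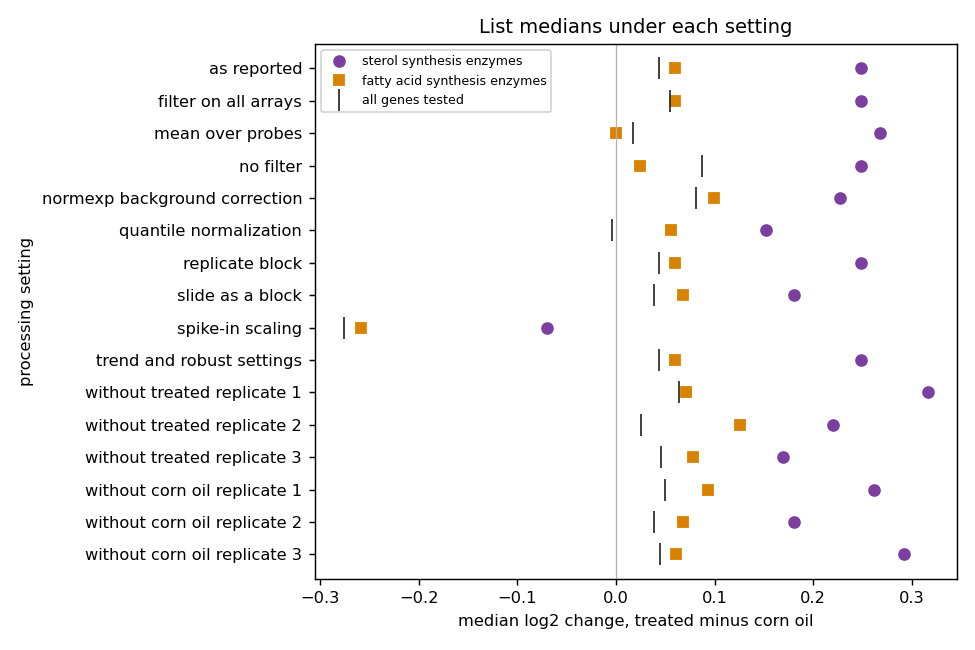
Median log2 change of the sterol enzymes, the fatty acid enzymes and all genes (horizontal axis, log2 units) under each way of processing the arrays and with each array left out. The sterol median lies above that of all genes in every setting shown, and with spike-in scaling all of the medians are below 0. Spike-in scaling, the replicate block and trend and robust settings cannot change the distance between the medians.

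The other genes of sterol handling had a median near 0. Of 26 genes of sterol uptake, efflux, storage and control, 22 were tested, with a median log2 change of 0.0074, and 0 passed the adjusted test. At an unadjusted p under 0.05, 1 was higher and 1 lower, against 14.3% and 7.29% of all genes. Soat1, which esterifies cholesterol for storage, stood at -2.90, -2.69 and -2.63 in corn oil and -3.04, -3.17 and -3.09 in treated rats, all below (log2 change -0.36 ± 0.10; adjusted p = 0.145). Nr1h3, the oxysterol receptor LXR-alpha, had a log2 change of 0.20 ± 0.078 (adjusted p = 0.209). Scarb1, a lipoprotein receptor, had 0.22 ± 0.10, and Abca1, which exports cholesterol to apolipoproteins, -0.59 ± 0.27, of which treated replicate 2 was the lowest.

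Of 30 other lipogenic genes, 26 were tested, with a median log2 change of 0.078, and 0 passed the adjusted test. At an unadjusted p under 0.05, 6 were higher (23.1%, beside 14.3% of all genes) and 2 lower (beside 7.29% of all genes). Me1, the cytosolic malic enzyme that supplies NADPH, stood at 4.01, 3.85 and 4.40 in corn oil and 5.55, 4.85 and 5.37 in treated rats. All treated arrays lay above, with a log2 change of 1.17 ± 0.22 (adjusted p = 0.113), a 2.25-fold ratio, and its 3 probes gave 1.06 to 1.17. Acss2, which makes acetyl-CoA from acetate for both pathways, stood at 2.74, 2.60 and 2.60 against 2.98, 3.17 and 3.24. Its groups did not overlap either (log2 change 0.48 ± 0.10; adjusted p = 0.118). Elovl2, an elongase of polyunsaturated fatty acids, had 0.46 ± 0.13 and Mlxipl, the gene of ChREBP, -0.35 ± 0.10, both with groups that did not overlap.

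The tissue label was checked against markers of the cells that renal cortex can hold. All 7 proximal tubule markers were among the tested genes, with a summed linear signal of 1492 to 1555 times the 75th percentile in corn oil rats and 1523 to 1774 in treated rats. At an unadjusted p under 0.05, 2 of the 7 were lower, Lrp2 (log2 change -0.34) and Cubn (-0.52), and 0 were higher. Over all genes the shares lower and higher were 7.29% and 14.3%. Adrenal cortex, which makes sterol in quantity, lies beside the kidney: Cyp11b1, Cyp11b2 and Star were not well above background on any array. Cyp11a1 was well above background on 2 corn oil arrays and 1 treated array, and Mc2r on 0 and 1. Of the 7 adrenal markers the 2 tested were Cyp21a1 (log2 change 0.0079) and Hsd3b1 (1.23 ± 0.48). The summed adrenal signal was 0.346 to 0.694 in corn oil and 0.585 to 1.098 in treated rats. Of 8 adipocyte markers, 6 were tested, with a summed signal of 215 to 250 in corn oil and 179 to 264 in treated rats, most of it from Pck1, which the proximal tubule also makes. The median log2 change of the 6 was 0.34, with 0.16 ± 0.28 in Adipoq, 1.48 ± 0.40 in Cidec, 0.52 ± 0.28 in Cfd, 0.51 ± 0.58 in Fabp4, 0.0091 ± 1.18 in Retn and -0.11 ± 0.16 in Pck1. Lep was not tested. Hepatocyte markers had 9.06 to 14.2 and 7.89 to 14.5.

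Some markers of other nephron segments, and those of red cells, differed between the groups. The summed signal of thick ascending limb markers was 264 to 289 in corn oil and 347 to 444 in treated rats, most of it from Umod. That of distal tubule markers was 22.0 to 28.5 and 16.2 to 19.8. Umod had a log2 change of 0.45, Kcnj1, the other thick ascending limb marker tested, of -0.16, and Slc12a3 of -0.53. Of the 5 collecting duct markers, Aqp3 (-0.31) and Hsd11b2 (-0.39) were lower at an unadjusted p under 0.05, against 7.29% of all genes. Aqp2 (0.18), Slc4a1 (0.51) and Atp6v1g3 (0.28) had changes above 0, and 0 of the 5 were higher at that threshold. The summed signal of the 5 overlapped between the groups, at 257 to 284 in corn oil and 237 to 307 in treated rats. The 3 erythroid markers tested had a summed signal of 139 to 200 in corn oil and 257 to 382 in treated rats. The 2 cell division markers had 0.808 to 1.92 in corn oil, 1.20 and 1.43 on treated replicates 1 and 3, and 4.70 on treated replicate 2. Without treated replicate 2 the sterol median was 0.22. The part of these cells in the members' values was not tested.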

How the data were processed

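The deposited scanner files hold 62976 spots per array, with intensity on a linear scale. Agilent Feature Extraction 10.7.1.1 made them, per the file headers (10.7 in the submitters' processing notes). Its deposited flags mark outliers, saturation and signal over background. In the authors' deposited value table, which holds a ratio, intensities are relative to their array's 75th percentile. Each column there fits the scanner data of a different replicate in its own group (32110 probes; SD of the log2 difference 0.00017 to 0.00018), so replicate numbers follow the scanner files.

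From the deposited intensity, log2 was taken and the 75th percentile of each array (non-control probes) subtracted. Probes with an outlier flag (64) were dropped, and a probe had to be well above background throughout at least 1 group. Genes were named through the probe's RefSeq accession and a RefSeq table of GRCr8: 33356 of 61657 probes carry an accession, and 27460 were named, for 15284 genes. The brightest kept probe stood for a gene. The test was limma 3.58.1 (lmFit, eBayes; R 4.3.3), with adjusted p by Benjamini-Hochberg over 11748 genes and a threshold of 0.05. Errors are limma's standard errors. The labels call the animals biological replicates. Same-numbered arrays did not deviate together (correlations 0.0065, -0.050 and -0.032), so the numbers do not pair them. The fit was tested on simulated data.

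All 32 members were to be named, and of each of 2 other lists the 4 genes with the lowest p. Some genes of these lists are not reported here. The members and lists were chosen with earlier results of these data known. The alternatives were normexp (offset 50), quantile normalization, spike-in scaling (7 probes), the authors' table (floor 0.0001), other filters, a replicate or slide block, the mean over probes, trend and robust settings, and leaving out each array.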

Additional observations from a re-analysis of the deposited data

How the results depend on the processing

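The sterol median stayed above that of all genes under every alternative run, and 0 members passed the adjusted test in any of them (lowest adjusted p of limma 0.0535). Spike-in scaling, the replicate block and trend and robust settings could not change the difference between these medians, which was 0.21 in each. The authors' table holds nearly the same values as the reported fit. These settings are also among those counted for single members below. Spike-in scaling turned signs: the sterol median was -0.070, the fatty acid median -0.26, Fdps -0.015, Msmo1 -0.037 and Ebp -0.014. There 119 genes were higher at an unadjusted p under 0.05 and 2422 were lower, with 0 sterol and 0 fatty acid enzymes higher and 9 genes past the adjusted test. The share of lower calls among all unadjusted calls was 33.8% in the reported fit, 95.3% with spike-in scaling, 53.7% with quantile normalization, 22.0% with normexp and 22.9% with no filter. Genes past the adjusted test numbered 56 with normexp, which was run on median signals, and 69 with trend and robust settings, against 3 reported. They numbered 0 with the mean over probes, with no filter, with the slide as a block and with the replicate block. With the replicate block the sterol median was 0.25, and 6 sterol enzymes were higher in place of 7, beside 11.5% of all genes in place of 14.3%. Msmo1 alone among the members lost an unadjusted p under 0.05 with that block. No filter gave 2696 genes higher, and quantile normalization 967 (8.23%), with 4 sterol enzymes. The slide as a block also gave 4 sterol enzymes, beside 9.57% of all genes. It is the same as leaving out corn oil replicate 2, which is alone on its slide. Leaving out each array in turn gave 0 to 70 genes past the adjusted test, 999 to 2355 higher and 534 to 1255 lower. It gave 4 to 10 sterol enzymes higher and 0 to 1 lower, 0 to 1 fatty acid enzymes lower, and a fatty acid median of 0.061 to 0.13. Of the single-member values under alternatives, 407 kept their direction and side of the threshold or moved by less than the spread between replicates, 23 moved by more, 38 lost and 9 gained an unadjusted p under 0.05, and 3 that had one in the reported fit turned sign. Members without one also turned sign: with spike-in scaling 4 of the 19 sterol enzymes had a log2 change above 0, in place of 18. The cause of these shifts was not tested. Signal over background limits Scd, which was too dim to test.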
